A study of Homo sapiens with 12 samples.

Results

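The genes described here are 37 components of the neuronal cytoskeleton and of axonal transport, listed by symbol: 7 tubulins, 8 microtubule-associated proteins, 4 stathmins, 5 neurofilament and related intermediate filament proteins, 9 motor or dynactin subunits, 2 tubulin ligases and 2 growth cone proteins. Each was read from the transcript cluster, the array's gene-level unit, with the highest mean signal among those annotated with its symbol. Of the 22411 gene symbols that had a cluster to themselves, 35 were members, and the remaining 2 members lay on clusters shared with a second symbol. The cells were SH-SY5Y, a human neuroblastoma line of the sympathetic lineage that is often used as a neuron-like model. They were electroporated with siRNA against MATR3 (matrin 3, a protein of the nuclear matrix that contacts RNA and DNA) or with negative control siRNA, and total RNA was taken 48 h later from 3 samples of each group. Affymetrix Human Transcriptome Array 2.0 arrays gave log2 signals per gene and, from the same arrays, per exon and exon junction. Nothing in the labels says whether replicates were separate cultures, so the p-values measure the spread among these 6 samples alone, and that spread may be technical.

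Microtubules are polymers of alpha and beta tubulin that run along the axon. Microtubule-associated proteins stabilise and space them, stathmins bind free tubulin and promote disassembly, and tubulin ligases add glutamate chains to tubulin tails. Kinesin motors carry cargo mostly outward along these tracks, dynein with dynactin carries cargo back towards the cell body, and neurofilaments fill the axon and set its calibre.

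The knockdown was visible on the arrays, where the cluster annotated with both MATR3 and its neighbour SNHG4 was lower by 1.14 ± 0.09 on the log2 scale (SD, n = 3 pairs), at 45.4% of control. The exact permutation test (two-sided) reached p = 0.1, and no smaller p is possible with 3 against 3. Both replicate 1 arrays differed from the other 4, with r = 0.9955 between them and 0.981 to 0.986 with the others, and the members in the fit were a median of 0.74 higher on them. Tests on members are therefore given with that array set as a block, and also with no block and with the replicate number as a block. For the MATR3 cluster, limma p-values were adjusted over all 33782 clusters past a filter on dim signal. They were 0.0547 with the array set as a block and 0.270 with the replicate block, and the cluster passed 0.05 in none of these models. Of 14 measured markers of adrenergic neuroblastoma, 12 lay above the brightest background probe set, but TH, the first enzyme of catecholamine synthesis, did not. The log2 of that list's summed unlogged signal was 16.80 to 17.05 after MATR3 siRNA and 17.44 to 17.55 in controls. That sum is weighted towards its brightest gene, DBH, at a mean of 16.20 after MATR3 siRNA and 17.04 in controls. With the array set as a block, 1 marker (ISL1) rose and 4 fell, where 3.48% of all clusters tested passed. The list's part in the results below was not tested. No measured Schwann or glial (5), epithelial (6) or blood or endothelial (7) marker was above background.

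The motor gene KIF5C fell, MAP1B fell, and MAP1A, STMN2 and NEFL rose in cells with MATR3 siRNA. With that array set as block (limma, Benjamini-Hochberg adjustment over the 15209 clusters with 1 gene symbol past a filter on dim signal), 5 of the 35 members in the fit (14.3%) passed the threshold of 0.05, against 3.48% of all clusters tested. Of the 15209, 2.08% rose and 1.41% fell. The members were brighter than the clusters tested, with array medians of 10.21 to 11.21 against 7.44 to 8.18, and no comparison at equal signal was made. Members and array-set block were also chosen with earlier results of these data known, which limits this and the later comparisons of shares. With no block 0 of the 35 passed, as did 0 of all 15209, and 1 member (KIF5C) had an unadjusted p under 0.05, against 0.631% of all clusters tested. With the replicate block 0 passed, against 0.0526% of all clusters tested. There, 15 of the 35 had an unadjusted p under 0.05, a higher share than the 20.4% of all clusters tested. Adjusted limma p-values under the first and the last of these models are called array-set and replicate-block p below. Leaving out any 1 of the 6 samples with the array set as a block also left 0 of the 35. In RNA from whole cultures, fewer cells of a type and less RNA per cell cannot be told apart.

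Changes among the members went both ways, with 16 of 35 differences above 0 and 19 below (54.3%), while 5776 of the 15209 clusters tested were below 0 and 9285 above. The median difference of the members was -0.02, beside 0.04 for all clusters tested. The same sign in all 3 pairs was seen in 24 of 35 members (68.6%), 13 higher and 11 lower, against 41.3% of all clusters tested, of which 26.9% were higher and 14.4% lower. In the same model an unadjusted p under 0.05 was reached by 16 members (45.7%), against 23.8%. The groups did not overlap in 1 member, STMN2 (2.86%), against 2.24% of all clusters tested.

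**Figure D1:**
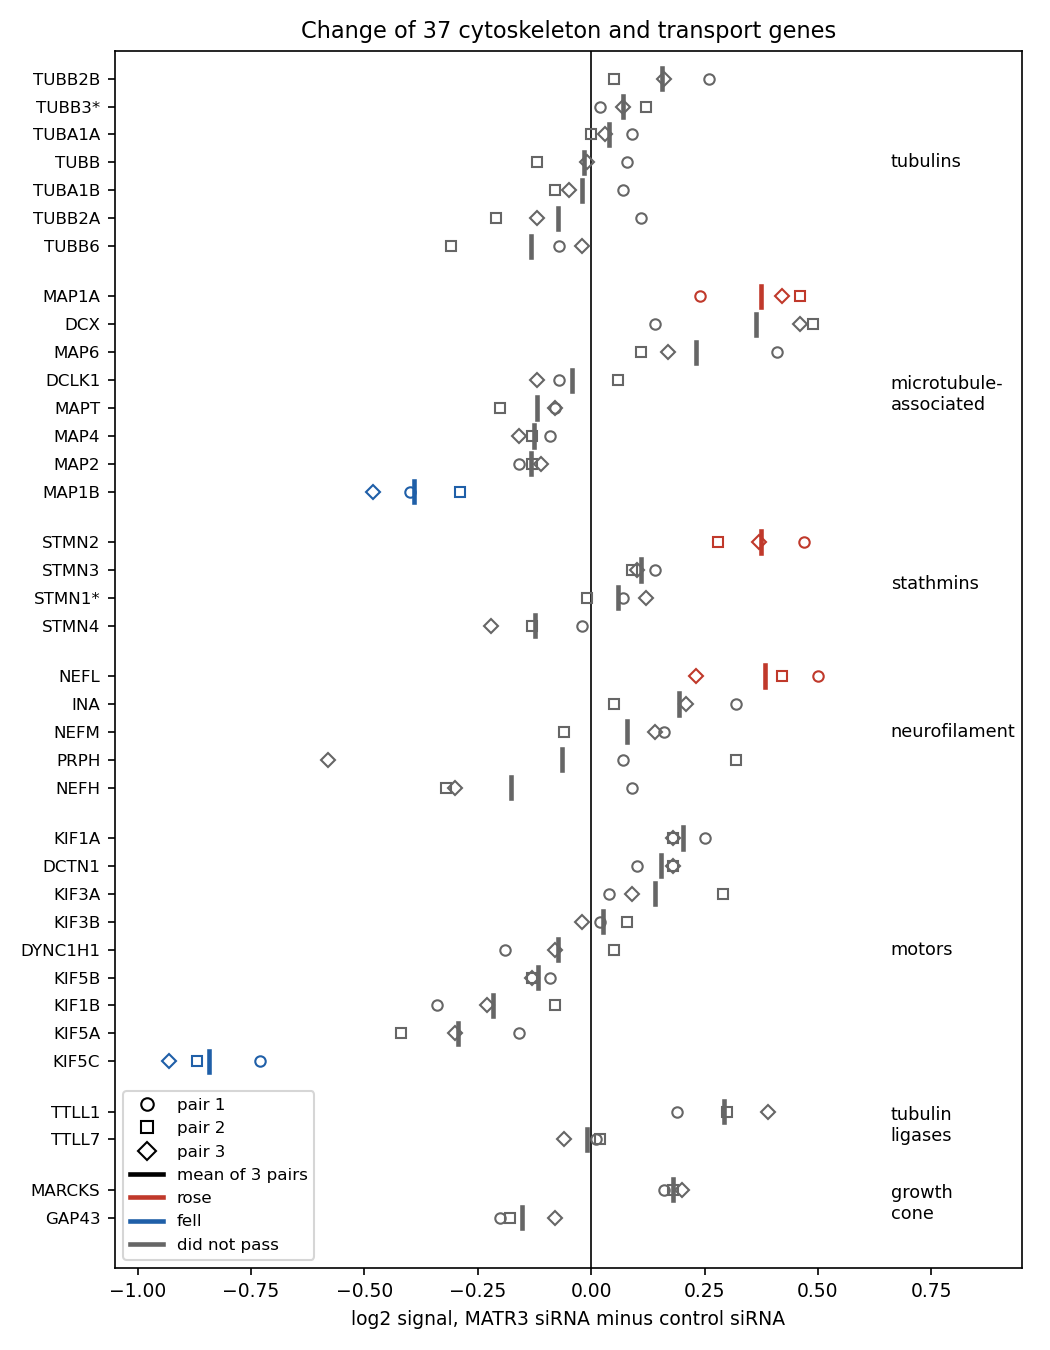
Difference in log2 signal, MATR3 siRNA minus control siRNA (x axis), for the 37 genes grouped by role (y axis). Open symbols are the 3 replicate pairs, bars their mean, and an asterisk marks a gene read from a cluster shared with a second symbol. KIF5C stands furthest to the left at -0.84, and MAP1A, STMN2 and NEFL lie between 0.37 and 0.38.

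KIF5C, MAP1B and MAP1A are the 2 members that fell and 1 of those that rose. Shown for each are the 250 bases before the further upstream of its 2 listed starts. They were taken from RefSeq on GRCh38.p14, which held a promoter for 29 of the 37 members, and all are written on the + strand from 5′ to 3′. Capitals mark GGGCGG or CCGCCC (a GC box on either strand), TATAAA and TGACGTCA (a cyclic AMP response element, whose letters read the same on both strands).
KIF5C: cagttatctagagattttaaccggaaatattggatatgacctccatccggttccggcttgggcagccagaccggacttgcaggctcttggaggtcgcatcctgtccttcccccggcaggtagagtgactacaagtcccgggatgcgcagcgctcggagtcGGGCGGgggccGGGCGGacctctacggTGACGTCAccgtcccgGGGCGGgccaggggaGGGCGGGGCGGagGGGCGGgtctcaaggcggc
MAP1B: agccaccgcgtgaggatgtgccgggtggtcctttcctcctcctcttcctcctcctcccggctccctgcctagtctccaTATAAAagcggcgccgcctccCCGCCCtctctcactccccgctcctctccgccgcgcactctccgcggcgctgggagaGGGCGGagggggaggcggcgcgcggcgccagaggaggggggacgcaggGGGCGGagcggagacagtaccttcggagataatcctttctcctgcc
MAP1A: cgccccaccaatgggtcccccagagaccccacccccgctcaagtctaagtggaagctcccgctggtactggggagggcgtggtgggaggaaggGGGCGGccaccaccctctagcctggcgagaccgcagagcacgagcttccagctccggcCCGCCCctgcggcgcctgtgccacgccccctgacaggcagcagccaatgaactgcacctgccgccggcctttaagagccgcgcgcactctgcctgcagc
The KIF5C window (chr2:148874977-148875226, 66% G and C) held 6 GC boxes, of which 2 overlap by a base, and 1 TGACGTCA. The MAP1B window (chr5:72107225-72107474, 70% G and C) held 3 GC boxes and 1 TATAAA. The MAP1A window (chr15:43510704-43510953, 70.4% G and C) held 2 GC boxes and neither of the other motifs. Over 35116 promoter windows of the same length, searched on both strands, 42.6% held a GC box, 10.7% TATAAA and 1.65% TGACGTCA, and the median G and C content was 58%. These matches describe letters and not bound sites.

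Among the motors, KIF5C, a neuronal heavy chain of conventional kinesin that carries vesicles and organelles along axons, fell. Its log2 signals were 12.15, 11.22 and 11.31 in MATR3 siRNA replicates 1 to 3, against 12.88, 12.09 and 12.24 in the control replicates. Each MATR3 siRNA sample lay below the control of its own number, and the groups overlapped because the MATR3 siRNA replicate 1 signal exceeded that of control replicate 2. The mean difference was -0.84 ± 0.10 (SD, n = 3 pairs), or 55.7% of control, with array-set adjusted p = 0.0199. It was 28th from the lowest of the 15209 differences. Replicate pairs 2 and 3 alone gave a mean of -0.90, and pair 1 gave -0.73. The replicate-block adjusted p was 0.0540, and leaving out 1 sample with the array set as a block gave adjusted p-values of 0.0521 (without MATR3 siRNA replicate 2) to 0.129 (without MATR3 siRNA replicate 3).

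The other 2 heavy chains of conventional kinesin did not pass the test. KIF5A, which is also neuronal, had signals of 9.36, 8.40 and 8.59 after MATR3 siRNA, against 9.52, 8.82 and 8.89 in controls. KIF5B, the form found in most tissues, had 15.51, 15.03 and 14.96 after MATR3 siRNA, against 15.60, 15.16 and 15.09 in controls. In both genes each MATR3 siRNA sample was below its paired control, while the groups as a whole overlapped. The difference was -0.29 ± 0.13 for KIF5A (array-set adjusted p = 0.0966). For KIF5B it was -0.12 ± 0.02 (SD, n = 3 pairs, array-set adjusted p = 0.248). Whether the change of KIF5C differs from those of its paralogs was not tested.

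The remaining motor genes had small differences in both directions. KIF1A and KIF1B, kinesins that carry synaptic vesicle precursors and other cargo, differed by 0.20 and -0.22. KIF1A came close to the threshold (array-set adjusted p = 0.0806) and was higher in all 3 pairs. KIF3A and KIF3B, which pair in the kinesin-2 motor, differed by 0.14 and 0.03. DYNC1H1, the heavy chain of cytoplasmic dynein, differed by -0.07, and DCTN1, the large dynactin subunit, by 0.15. Of the 9 motor and dynactin genes, 0 rose, 1 fell and 8 did not pass.

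**Figure D2:**
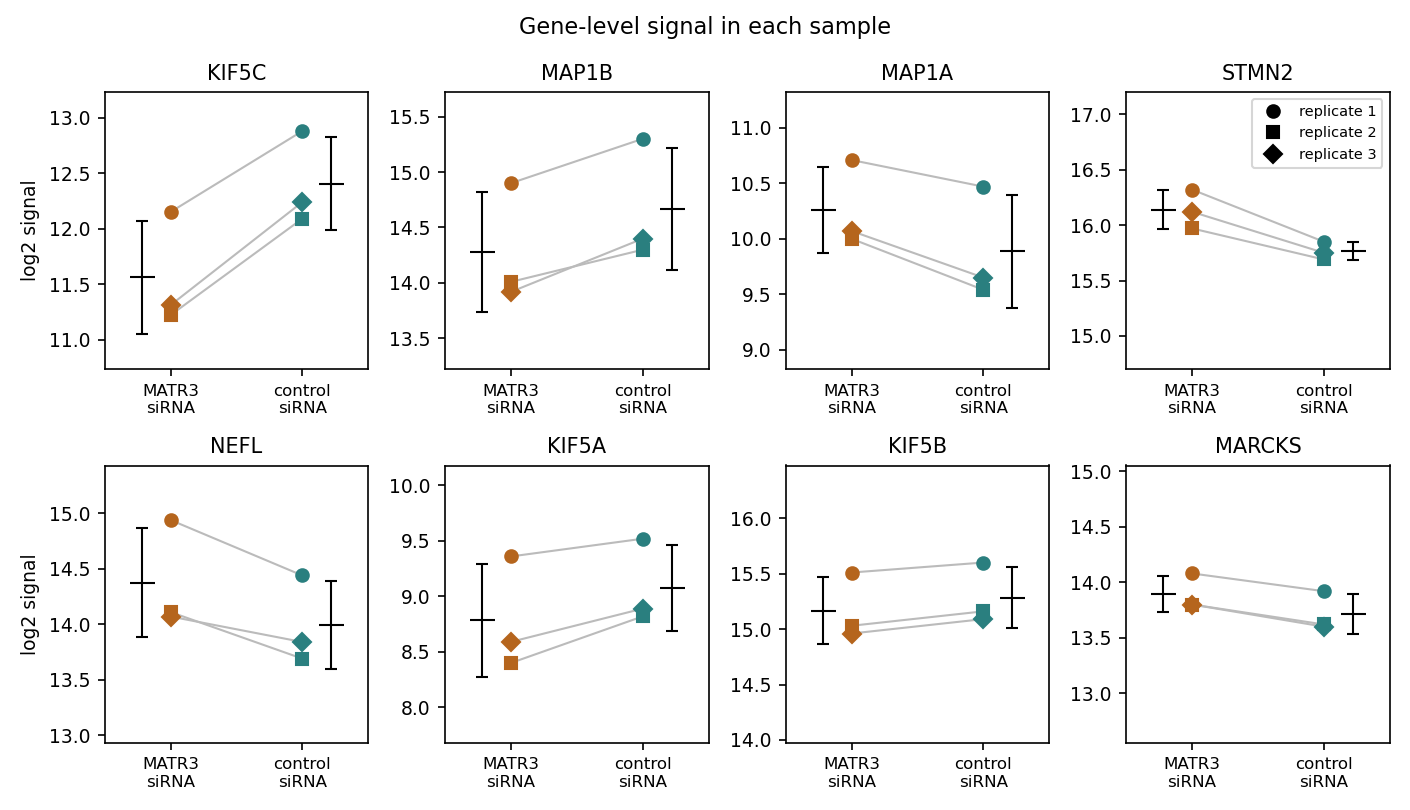
Gene-level log2 signal (y axis) in the 3 MATR3 siRNA samples (left) and the 3 control siRNA samples (right) for 8 members, with lines joining samples of the same replicate number and bars giving the mean and SD of each group. Every panel spans the same height, so slopes compare between genes while levels do not. The replicate 1 samples are the highest of both groups in each panel, and STMN2 is the gene whose groups do not overlap.

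Microtubule-associated proteins held 1 member that rose and 1 that fell, both of the MAP1 family. MAP1B, a large protein abundant in growing axons, had log2 values of 14.90, 14.01 and 13.92 after MATR3 siRNA, against 15.30, 14.30 and 14.40 in controls. Every MATR3 siRNA sample lay below its paired control and the groups overlapped, because both replicate 1 samples were high. The difference was -0.39 ± 0.10 (SD, n = 3 pairs), or 76.3% of control, with array-set adjusted p = 0.0331 and replicate-block adjusted p = 0.0860. MAP1A, its relative of mature neurons, had 10.71, 10.00 and 10.07 after MATR3 siRNA, against 10.47, 9.54 and 9.65 in controls. It was higher in each MATR3 siRNA sample than in its paired control, again with overlap between the groups. The difference was 0.37 ± 0.12 (SD, n = 3 pairs), or 1.30-fold, with array-set adjusted p = 0.0481 and replicate-block adjusted p = 0.0993.

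The other 6 of these 8 genes did not pass. DCX (doublecortin, a microtubule stabiliser of migrating young neurons) differed by 0.36 ± 0.19 (SD, n = 3 pairs), close to the size of the MAP1A difference, with array-set adjusted p = 0.246. Its signals were 7.92, 7.06 and 7.47 after MATR3 siRNA, against 7.78, 6.57 and 7.01 in controls, higher in each MATR3 siRNA sample than in its pair. MAP6, which protects microtubules from cold, differed by 0.23, and DCLK1, a doublecortin-like kinase, by -0.04. MAP2 of dendrites, MAP4 of many tissues and the axonal protein MAPT (tau) differed by -0.13, -0.13 and -0.12, each lower in all 3 pairs.

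Among the stathmins, STMN2 rose. STMN2 (SCG10) is a neuron-specific stathmin of growth cones that takes part in axon regrowth. Its log2 signals were 16.32, 15.97 and 16.12 after MATR3 siRNA, against 15.85, 15.69 and 15.75 in controls. The lowest MATR3 siRNA sample was above the highest control sample. The difference was 0.37 ± 0.10 (SD, n = 3 pairs), or 1.30-fold, with array-set adjusted p = 0.0470 and replicate-block adjusted p = 0.0893. STMN3 and STMN4, 2 further neuronal stathmins, differed by 0.11 and -0.12 and did not pass, and STMN4 was not above the brightest background probe set. STMN1, the widely expressed founding stathmin, shares its cluster with MIR3917 and stayed outside the fit, with a difference of 0.06. Of the 27 exon probe sets annotated with both symbols, the 12 with a mean signal of at least 12 had a median difference of -0.03 (range -0.56 to 0.28).

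Of the 5 neurofilament and related genes, NEFL rose and 4 did not pass. NEFL encodes the light neurofilament chain, the core on which the other chains assemble. It had log2 values of 14.94, 14.11 and 14.07 after MATR3 siRNA, against 14.44, 13.69 and 13.84 in controls. Each MATR3 siRNA sample was above its paired control, although replicates 2 and 3 after MATR3 siRNA lay below control replicate 1. The difference was 0.38 ± 0.14 (SD, n = 3 pairs), or 1.30-fold, with array-set adjusted p = 0.0470 and replicate-block adjusted p = 0.106. The medium chain NEFM and the heavy chain NEFH, its usual partners, differed by 0.08 and -0.18, with signs that varied between pairs.

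INA (alpha-internexin), a neurofilament partner of young neurons, had 15.48, 14.74 and 15.08 after MATR3 siRNA, against 15.16, 14.69 and 14.87 in controls. It was higher in all 3 pairs, by as little as 0.05 in pair 2, and the groups overlapped. Its difference of 0.19 ± 0.14 (SD, n = 3 pairs) had array-set adjusted p = 0.338. PRPH (peripherin, of peripheral neurons) was not above the brightest background probe set, and its pair differences were 0.07, 0.32 and -0.58.

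Whether the 3 rises passed the threshold depended on how the arrays were scaled, while their differences stayed above 0. After median centring of the arrays, which moved the median over all clusters tested from 0.04 to -0.04, the differences were 0.30 for MAP1A, 0.30 for STMN2 and 0.31 for NEFL, and none of the 3 passed. Quantile normalization moved that median to -0.01 and also ended these 3 calls, with 0.33 for MAP1A, 0.37 for STMN2 and 0.35 for NEFL. KIF5C and MAP1B passed under both scalings, at -0.92 and -0.47 with median centring and at -0.87 and -0.41 with quantile normalization.

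None of the 6 tubulin genes in the fit passed, and their differences ran from -0.13 to 0.16. TUBA1B, an alpha tubulin of most cells, had log2 values of 17.91, 18.47 and 18.49 after MATR3 siRNA, against 17.84, 18.55 and 18.54 in controls. Both replicate 1 samples were the lowest of their group, and the groups overlapped, with a difference of -0.02 ± 0.08 (SD, n = 3 pairs, array-set adjusted p = 0.848). TUBA1A, the main alpha tubulin of young neurons, differed by 0.04. The beta tubulins TUBB2A and TUBB2B, also neuronal, differed by -0.07 and 0.16, TUBB by -0.02 and TUBB6 by -0.13. TUBB3, the neuron-specific beta tubulin, shares its cluster with MC1R and stayed outside the fit, with a difference of 0.07 at a cluster mean not above the brightest background probe set. Of 33 exon probe sets annotated with both symbols, 4 had a mean signal of at least 12, from 12.8 to 13.8, with a median difference of 0.15 (range -0.55 to 0.44). Some tubulin genes are closely alike in coding sequence, so signal shared between such genes cannot be separated here. The TUBB symbol was annotated to 8 clusters, for a reason that was not examined.

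The tubulin ligases and growth cone proteins had no member that passed. TTLL7, which adds glutamate chains to beta tubulin, had 8.99, 8.06 and 8.13 after MATR3 siRNA, against 8.98, 8.04 and 8.19 in controls, which lay within 0.06 of each other in every pair. Its difference was -0.01 ± 0.04 (SD, n = 3 pairs, array-set adjusted p = 0.937). TTLL1, a polyglutamylase of the same family, differed by 0.29 ± 0.10 and just missed the threshold (array-set adjusted p = 0.0560). MARCKS, an actin-binding protein at the membrane of growth cones, had 14.08, 13.80 and 13.80 after MATR3 siRNA, against 13.92, 13.62 and 13.60 in controls. It was higher in each pair by a similar step, at 0.18 ± 0.02 (SD, n = 3 pairs), with overlapping groups and array-set adjusted p = 0.0960. GAP43, a growth cone protein of regenerating axons, differed by -0.15 and was lower in all 3 pairs.

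At exon level, the loss of KIF5C signal extended along the gene. All 30 kept exon probe sets of KIF5C (mean signal at or above the median of all probe sets) had a lower mean after MATR3 siRNA, 28 of them in each of the 3 pairs, and 17 were at least 2-fold lower. Their median difference was -1.01, with a range of -1.49 to -0.14. The 27 kept junction probe sets had a median of -1.06, with 25 lower and 2 higher, 1 of the latter by 0.69. Of 3611 genes with at least 20 kept exon probe sets, 12 (0.332%) had all of them lower, and 5, KIF5C included, had a median as low as that of KIF5C. Of 11365 genes with at least 5, 162 (1.43%) had all lower, and 16, KIF5C included, had a median as low. KIF5C was singled out by its gene-level fall on these same arrays, so its place among these genes is not independent support. KIF5A had 30 of 32 kept exon probe sets lower, with a median of -0.28, and KIF5B 22 of 30, with a median of -0.16. Probe sets of 1 gene share its transcripts and are not independent replicates.

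**Figure D3:**
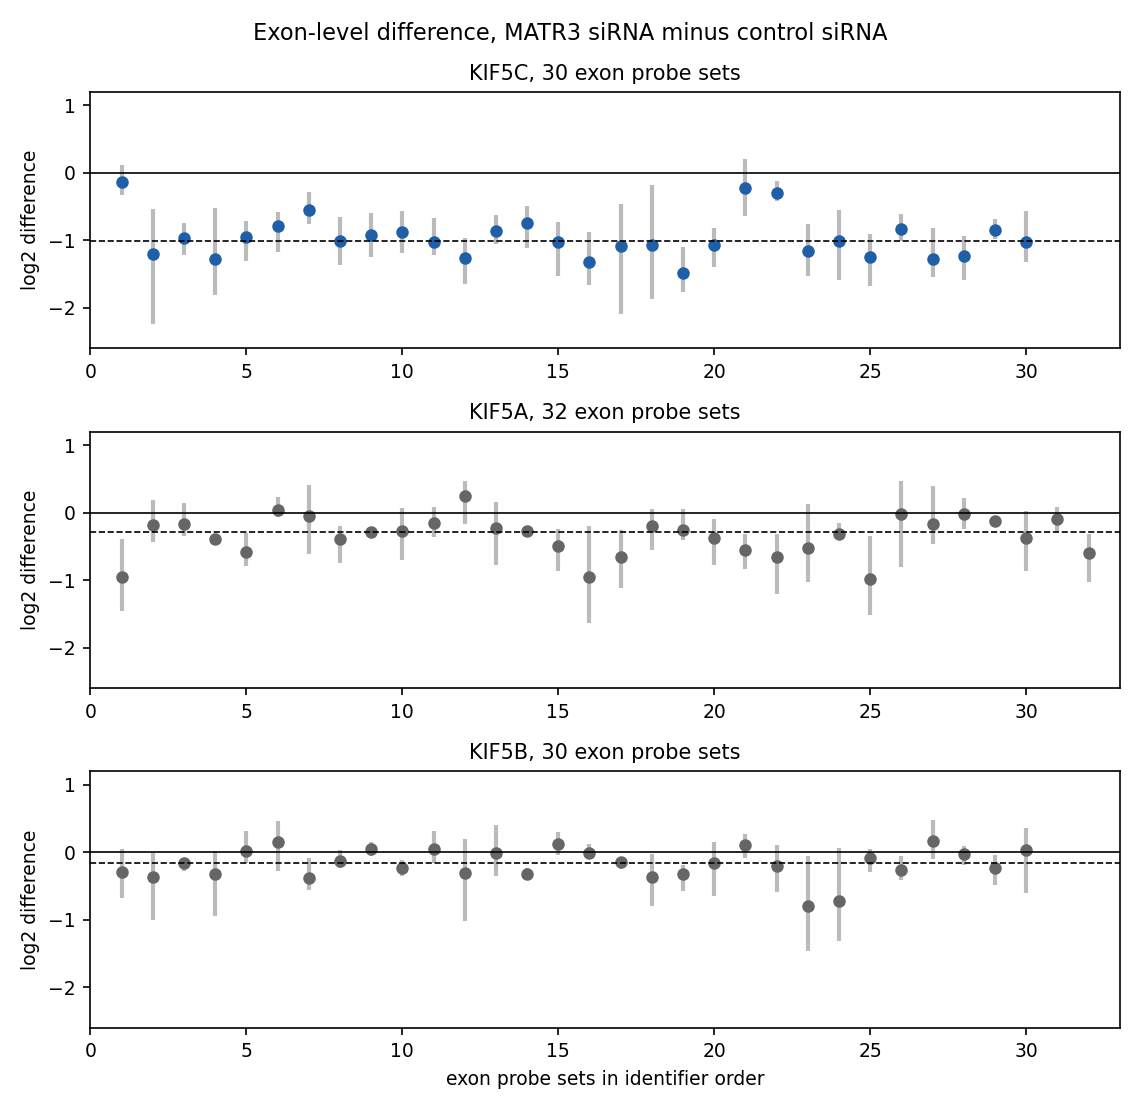
Exon-level difference in log2 signal, MATR3 siRNA minus control siRNA (y axis), for each kept exon probe set of KIF5C, KIF5A and KIF5B in the order of their identifiers (x axis). Points are means of 3 pairs, grey lines run over the range of the 3 pair differences and dashed lines are medians. The KIF5C points all lie below 0, with a median of -1.01, and those of its paralogs scatter around -0.28 and -0.16.

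Exon-level medians of the other members that passed had the sign of the gene-level difference. Both levels were read from the same arrays, so this is not independent support. Among all kept exon probe sets of single-symbol genes, 47.7% were lower. MAP1B had 12 of 13 kept exon probe sets lower, with a median of -0.49. The exception differed by 4.46, with pair differences of -0.86, 4.63 and 9.60 that disagreed in sign and size. STMN2 had 12 of 13 higher (median 0.38), NEFL 8 of 10 (median 0.38) and MAP1A 8 of 10 (median 0.43).

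Many members had larger differences at exon level than at gene level, so this was not particular to those named here. MAPT had 11 of 13 exon probe sets lower with a median of -0.54, against -0.12 for its gene-level cluster. DCX had 11 of 12 higher with a median of 0.64, against 0.36. TTLL1 had 11 of 12 higher with a median of 0.41, against 0.29. KIF1B had 52 of 59 lower with a median of -0.25, against -0.22, a gap within its pair SD of 0.13. Kept junction probe sets had medians of -0.46 for MAPT, 0.26 for DCX and -0.41 for KIF1B. Those of TTLL1 did not share the rise, with a median of -0.14 (6 lower, 5 higher). STMN4, dim at gene level, had 6 of 7 lower with a median of -0.41, but only 3 of them were lower in all 3 pairs. Its exon medians in pairs 1 to 3 were 0.11, -0.58 and -0.79, and its kept junctions had a median of -0.01 (4 lower, 4 higher). Over the 35 members the exon-level median lay within the pair SD of the gene-level difference in 23 and outside it in 12.

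**Figure D4:**
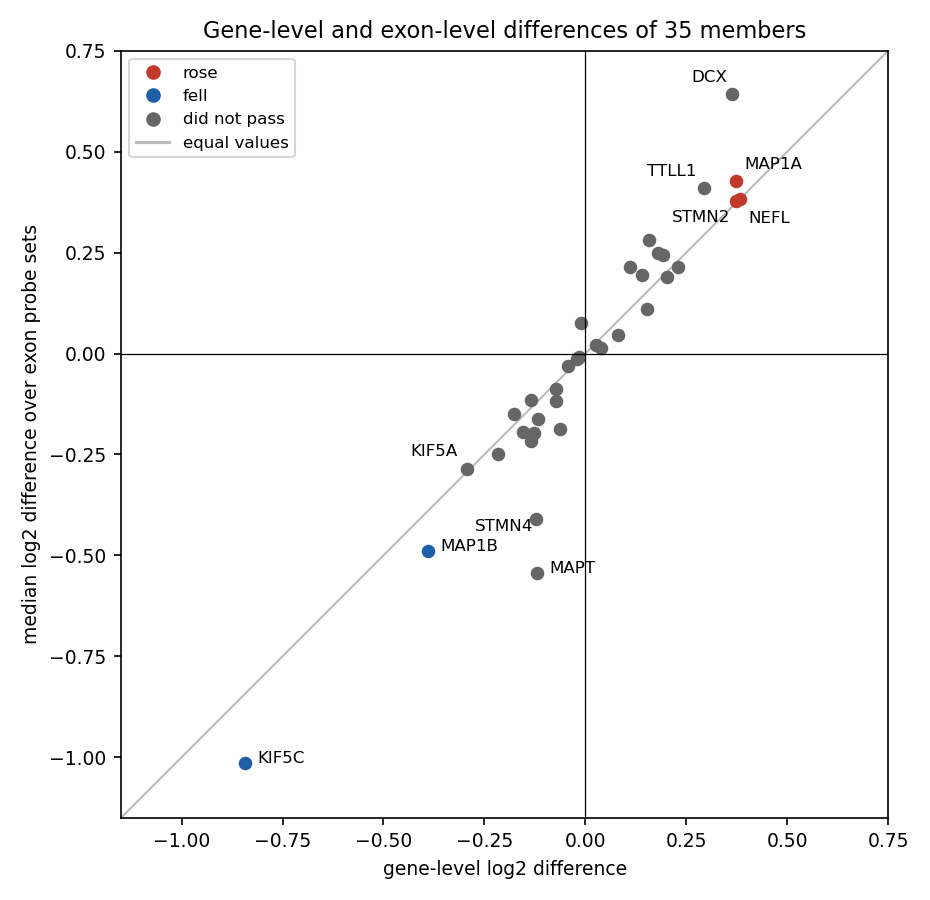
Gene-level log2 difference (x axis) against the median log2 difference over kept exon probe sets (y axis), both MATR3 siRNA minus control siRNA, for the 35 members in the fit. The grey line marks equal values. KIF5C lies at -0.84 and -1.01, and MAPT and DCX stand away from the line at exon-level medians of -0.54 and 0.64.

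Exon use within the members was read from the splicing index, which subtracts from the log2 signal of a probe set the average of all kept probe sets belonging to that gene, sample by sample. In the array-set model, 0 of 1316 member probe sets passed among 347213 tested, where 0% passed overall. At an unadjusted p under 0.05 there were 128 member probe sets (9.73%), against 9.25% of all tested. The 3 smallest p-values belonged to junctions, and none of them passed after adjustment. A KIF1B junction had log2 values of 11.80, 11.50 and 11.86 after MATR3 siRNA and 11.02, 10.40 and 10.82 in controls, a splicing index difference of 1.35. A MAP2 junction had 12.99, 13.22 and 13.75 after MATR3 siRNA and 12.14, 12.06 and 11.67 in controls, a difference of 1.48. In both of these the groups did not overlap, but the junctions were picked for their small p. The share of probe sets without overlap was not counted, so nothing is concluded from it. A KIF1A junction had 11.37, 8.70 and 8.60 after MATR3 siRNA and 11.57, 10.43 and 10.47 in controls, a difference of -1.31, with a far smaller gap in pair 1.

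Other genes of the same pathways were read from 8 further lists, with 175 genes in the fit. With the array set as a block, 5 rose and 2 fell (4% against the 3.48% of all clusters tested), and 35 (20%) had an unadjusted p under 0.05, against 23.8%. With the replicate block 0 of the 175 passed. There, 28 of the 175 had an unadjusted p under 0.05, a lower share than the 20.4% of all clusters tested. With no block 0 passed and 0 had an unadjusted p under 0.05. CAMSAP2, which protects microtubule minus ends, rose by 0.43 ± 0.16 as 1 of 31 other microtubule-associated proteins. Among 29 dynein and dynactin subunits and regulators, the dynein adaptor HOOK1 rose by 0.53 ± 0.23 and the adaptor BICD2 fell by 0.32 ± 0.07. TTLL5, a polyglutamylase, rose by 0.28 ± 0.02 as 1 of 24 tubulin modifying and severing genes.

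The intermediate filament gene VIM (vimentin), which is also on the mesenchymal neuroblastoma marker list, rose by 0.37 ± 0.14 as 1 of 8 other intermediate filament genes. That marker list had 6 of 15 measured genes above background and 2 that rose, where 3.48% of all clusters tested passed. The log2 of its summed unlogged signal was 12.41 to 13.44 after MATR3 siRNA and 12.29 to 13.16 in controls. The list's part in the results was not tested. Of 25 membrane skeleton and growth cone genes, ANK1, an ankyrin, rose by 0.50 ± 0.10, at a mean signal not above the brightest background probe set. DPYSL3, a collapsin response mediator of growth cones, fell in the same list by 0.59 ± 0.04, with signals of 10.30, 9.73 and 9.71 after MATR3 siRNA against 10.92, 10.34 and 10.26 in controls (SD over 3 pairs throughout). Each MATR3 siRNA sample was lower than its pair by nearly the same step, with the groups overlapping.

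Further kinesins and kinesin light chains (22), tubulins and folding cofactors (15) and transport adaptors (21) had 0 genes that passed, with 3, 1 and 3 at an unadjusted limma p under 0.05 (13.6%, 6.67% and 14.3%), each a lower share than the 23.8% of all clusters tested. The gene with the highest mean signal in each was KIF21A at 0.24, TUBB4B at -0.04 and RAB7A, a late endosome GTPase, at 0.28. List medians lay between -0.01 and 0.08, beside 0.04 for all clusters tested. In the lists with genes that passed, the share at an unadjusted p under 0.05 in the array-set model lay on both sides of 23.8%. It was 62.5% (5 of 8) for intermediate filaments and 32% for membrane skeleton and growth cone. Microtubule-associated proteins had 22.6%, dynein and dynactin 20.7%, and tubulin modification and severing 8.33%.

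**Figure D5:**
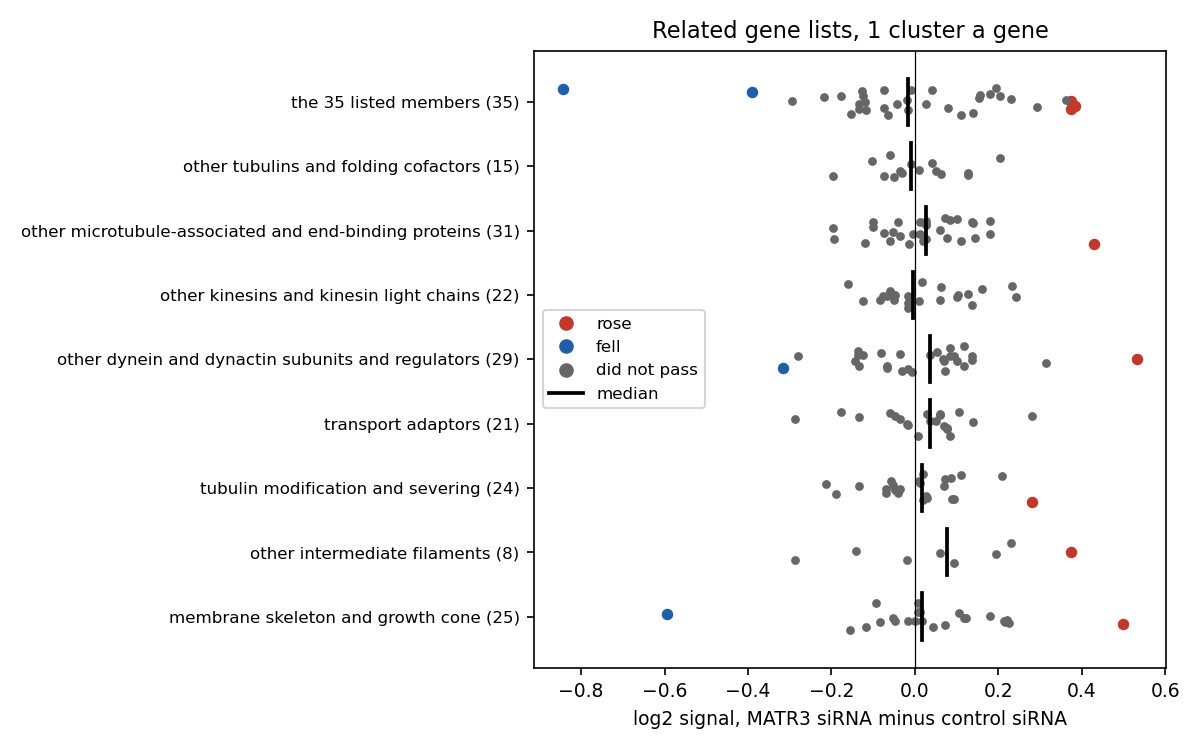
Difference in log2 signal, MATR3 siRNA minus control siRNA (x axis), for the 35 members in the fit and for genes of 8 related lists (y axis, genes in the fit in brackets). Each point is 1 gene, coloured where it passed with the array set as a block, and black bars are list medians. The medians lie between -0.02 and 0.08, and DPYSL3, at -0.59, is the lowest point outside the members.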

How the data were processed

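The deposited values are log2 signals, which the authors made with Affymetrix Expression Console and RMA, per the submitters' processing notes. Versions, order of steps and genome build are not given in the sources used here. The 6 arrays did not share 1 distribution (medians over clusters 4.80 to 5.16), and nothing was rescaled before the main tests. Arrays give no read depth, and precision is limited by how many there were. The members and lists, and the array set as a block (replicate 1 of both groups against replicates 2 and 3), were chosen with earlier results of these data known.

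Symbols came from the platform annotation, updated through RefSeq gene records. Of 67528 clusters, 33782 had a mean at or above the median of 4.945, and the 15209 of these with 1 symbol were tested. TUBB3 and STMN1, on clusters with 2 symbols, were left out of the fit. Linear models (lmFit and eBayes of limma 3.58.1 in R 4.3.3, two-sided tests) set 3 MATR3 siRNA samples against 3 control samples, with no block, with the array set as a block (the model behind the calls in the text and their alternatives) or with the replicate block. The Benjamini-Hochberg threshold was 0.05. Differences are means and SDs of 3 pairs: deviations from group means correlated within replicate numbers at 0.752, 0.426 and 0.613, each over 0.1, and the samples were treated as pairs on that basis, a check that the replicate 1 arrays dominate. Exon-level models covered 347213 probe sets, from single-symbol genes that kept 5 or more. A gene is called above background where its mean exceeds 6.93, the highest mean of 23 background probe sets.

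Genes described in full were the members that passed, members whose groups do not overlap and the brightest member of each role. Of each related list up to 4 genes that passed are named, or the brightest, and of exon probe sets the 3 smallest p-values. KIF5A, KIF1A, DCX and TTLL1 were given more values after these were seen. Alternatives covered the block, normalization, filter, adjustment, array weights, leaving out each sample, clusters per gene and the exon-level median. Files were read with the data.table package (version 1.17.8), and figures drawn with Python 3.11.15 and matplotlib 3.10.9.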

Additional observations from a re-analysis of the deposited data

How the results depend on the processing

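The 5 members that passed with the array set as a block became 0 with no block, 0 with the replicate block, 0 when p-values were adjusted over all clusters past the filter, 1 with no filter (KIF5C), 2 after median centring and 2 after quantile normalization (KIF5C and MAP1B in both), and 12 with array weights (9 higher, 3 lower). Over all 15209 clusters, the 530 became 0 with no block, 8 with the replicate block, 0 when adjusted over all clusters past the filter (where 1 cluster outside the 15209 passed), 124 of 23781 with no filter, 973 with the 75th percentile filter, 205 after median centring and 3275 with array weights. The split into higher and lower calls was 316 and 214, against 58 and 147 after median centring and 170 and 215 after quantile normalization. The 7 genes of the related lists became 0 with no block, 0 with the replicate block, 0 adjusted over all clusters, 2 with no filter, 2 after median centring, 4 after quantile normalization, 11 with the 75th percentile filter and 29 with array weights. From no block, the 0 members became 5 with the array set and 8 with array weights. Leaving out 1 sample gave 0 to 0 members, 0 to 0 genes of the related lists and 0 to 21 of all clusters, and a MATR3 cluster difference of -1.37 to -0.96. The numbers of samples and of clusters tested fall in some of these settings, and the cause of the other changes was not tested. Member probe sets called on the splicing index stayed at 0 in every setting run. No member that passed changed its sign under any alternative run. The block, filter and adjustment settings leave the difference itself as it was, so they could not have changed a sign. The replicate block, which pairs the samples, gave 0 members and changed no difference, since the design is balanced.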
